A study of Mus musculus with 6 samples.

Results

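Transcripts of 34 ribosome biogenesis and nucleolar genes were examined in splenic follicular B cells, out of 24346 gene symbols in the deposited tables. The genes were chosen by symbol, as nucleolar processing factors and RNA polymerase I components. All 34 symbols were found in the tables. The 3 G9gl libraries came from 8-week-old homozygotes in which knocked-in heavy and light chain genes encode G9gl, the germline precursor of an antibody to double-stranded DNA isolated in lupus. The 3 WT libraries came from B6 controls of the same age. Cells of both genotypes were sorted as B220+ CD93- with low CD21 and high CD23. These markers define the follicular B cell, the common mature B cell that recirculates through spleen and lymph nodes. The study asked how gene expression differs in the anergic G9gl cells, anergy being a state in which self-reactive B cells persist but respond weakly. No label says that the libraries of a genotype came from separate animals or whether animals were pooled, so the p-values speak of the spread among these libraries alone, which may be technical.

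Ribosomes are assembled in the nucleolus. RNA polymerase I transcribes the precursor of the ribosomal RNAs from the ribosomal DNA repeats, small nucleolar RNPs (snoRNPs) modify and help to cut it, and assembly factors join it to ribosomal proteins in separate small and large subunit pathways. In resting B cells this machinery runs at a low rate, and antigen receptor signals and the transcription factor Myc, which binds E-box sequences in many of these genes, are known to raise it.

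In G9gl follicular B cells 6 of the 34 genes were higher than in WT, namely Npm1, Polr1c, Nhp2, Gnl3, Nip7 and Nop14, and 0 were lower (limma, Benjamini-Hochberg adjusted p under 0.05 over 10122 tested genes). The changes were small, from 1.16-fold for Nop14 to 1.36-fold for Polr1c, on the scale of log2(FPKM + 1), which understates the change of low genes. FPKM are fragment numbers scaled to transcript length and to the mapped fragments of the library. The 6 genes make 17.6% of the list, and of all tested genes 11.8% were called higher and 23.4% in either direction. Of the 34 genes, 0 were lower against 11.6% of all tested genes, and Ubtf alone had an unadjusted limma p under 0.05 in that direction. The filter asked for 1 FPKM or more in 3 libraries or more, and all 34 genes passed it in every library, the lowest value being 5.11 FPKM for Rrp1b.

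The estimates leaned one way more than the calls. In 29 of the 34 genes the log2 fold change was above 0, which is 85.3% of them, against 49.7% of all tested genes. In 17 of the 34 every G9gl library lay above every WT library, against 20.3% of all tested genes. The median log2 fold change of the 34 genes was 0.13, against -0.0022 over all tested genes. Summed over the 34 genes, G9gl libraries held 1852, 1916 and 1896 FPKM and WT libraries 1670, 1633 and 1698 FPKM. The sums do not overlap, and they did not without Npm1, with 1478 to 1522 FPKM in G9gl and 1347 to 1392 FPKM in WT. As a share of the FPKM total of each library, however, the 34 genes made 0.276%, 0.286% and 0.288% in G9gl and 0.273%, 0.271% and 0.279% in WT, and the genotypes overlapped, since G9gl replicate 1 lay below WT replicate 3. In bulk RNA, more cells of a kind and more RNA per cell cannot be told apart. Markers of proliferation and of macrophages also differed. The sum of 12 proliferation markers was 164 to 185 FPKM in G9gl and 126 to 139 FPKM in WT. Pcna was the largest of these, with means of 83.2 FPKM in G9gl and 67.5 FPKM in WT. The sum of 12 macrophage markers was 48.1 to 56.7 FPKM in G9gl and 20.0 to 25.8 FPKM in WT. The part of either marker list in these results was not tested.

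The number of calls depended on single libraries and on scaling. It was 2 without G9gl replicate 2 or WT replicate 2, 3 without WT replicate 1, 4 without G9gl replicate 3 and 5 without G9gl replicate 1 or WT replicate 3. The number of all tested genes called higher also fell when a library was left out, to 853 without G9gl replicate 2, 827 without WT replicate 2, 950 without WT replicate 1, 938 without G9gl replicate 3, 1136 without G9gl replicate 1 and 990 without WT replicate 3, against 1191 with all 6 libraries. Total FPKM was higher in G9gl, at 657759 to 671533, than in WT, at 603054 to 611557, and rescaling to TPM, in which all libraries have the same total, moved the median of all tested genes by -0.13 on the log2 scale. After it 2 of the 34 genes, Npm1 and Polr1c, were higher and 3, Ubtf, Rrs1 and Ebna1bp2, were lower, while 7.21% of all tested genes were called higher and 24.6% lower. The median of the 34 genes was then 0.0039, and 18 of the 34 had a log2 fold change above 0. Over all tested genes the median was -0.127 in that setting, so most of them lay below 0. Set against the median of all tested genes under the same scaling, the 34 genes stood 0.14 higher on FPKM and 0.13 higher after rescaling.

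**Figure D1:**
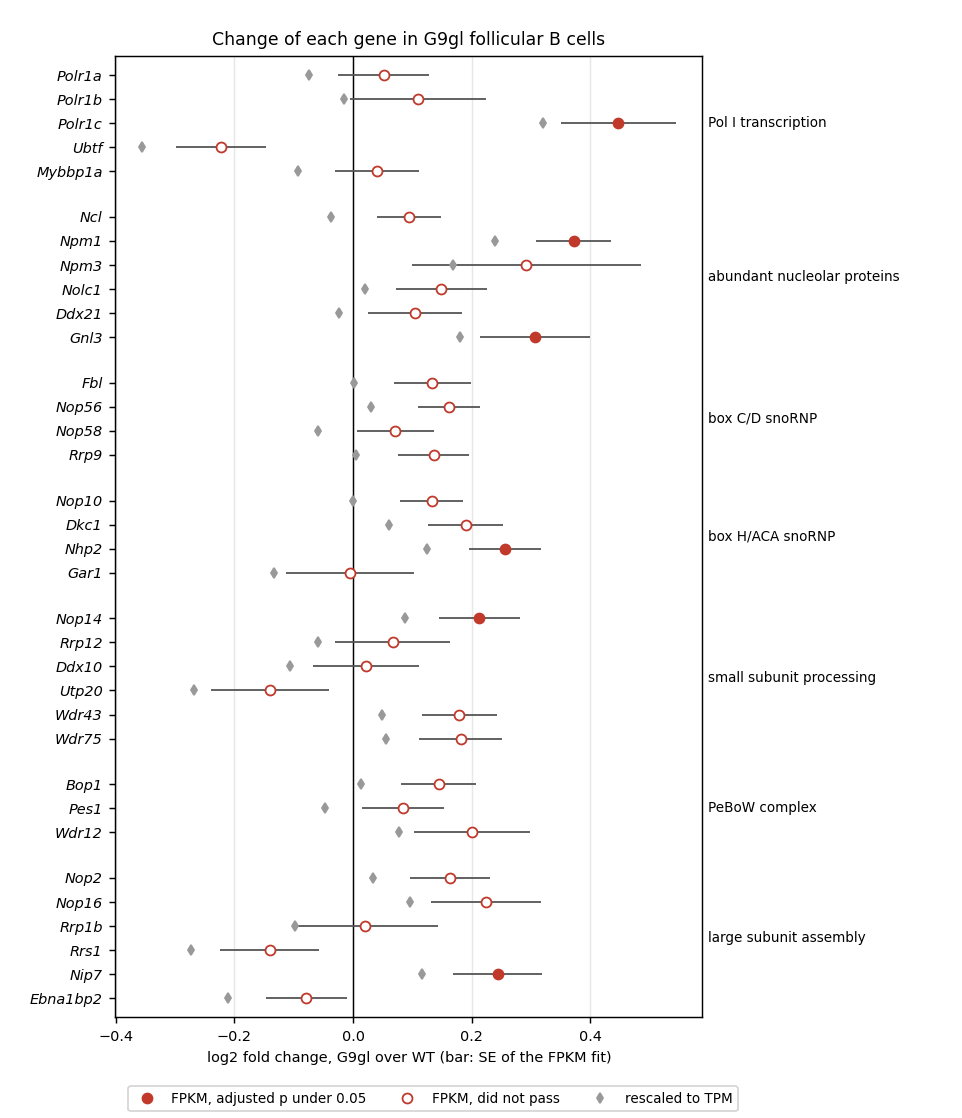
Log2 fold change of each gene, G9gl over WT, with bars for the limma standard error, grouped by role. Filled circles passed at an adjusted p under 0.05, open circles did not, and grey diamonds give the estimate after rescaling to TPM, which lies left of the FPKM estimate for every gene drawn.

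The starts of the genes were compared for sequence, since E-boxes are the sites that Myc is known to bind. RefSeq promoter windows on GRCm38.p6, from 250 bases before to 50 bases after the annotated start, were found for 29 of the 34 genes, and some genes have several windows. The E-box CACGTG, which reads the same on both strands, was in a window of 5 of these 29 genes, or 17.2%, against 12.6% of the 7811 tested genes with a window. These 5 were Mybbp1a, Nop2, Pes1, Utp20 and Wdr43, and 0 of the 5 called genes with a window held it. The core CCGGAAG, read on either strand (CTTCCGG), which factors of the ETS family are known to bind, was in windows of 8 genes, or 27.6%, against 23.2% of tested genes. The share was 51.2% among the other ribosome biogenesis genes and 41.4% among the cytosolic ribosomal protein genes described below, of those with a window. Of the 24 genes with a window that did not pass, 5 held the core, or 20.8%, namely Ddx10, Ebna1bp2, Gar1, Nolc1 and Nop2. Among the 5 called genes the core was present in Polr1c, Nhp2 and Nip7. Whether it goes with the calls was not tested. The 250 bases before the start are given for these 3 called genes, and for Nop2, in which alone the E-box lies before the start, at 60 bases from it. Capitals mark the E-box and the ETS core, and all are written 5′ to 3′ on the strand of the gene, from chr17:46248046-46248295 (minus strand), chr11:51619523-51619772, chr8:107056627-107056876 and chr6:125131633-125131882 (plus strand).
Polr1c: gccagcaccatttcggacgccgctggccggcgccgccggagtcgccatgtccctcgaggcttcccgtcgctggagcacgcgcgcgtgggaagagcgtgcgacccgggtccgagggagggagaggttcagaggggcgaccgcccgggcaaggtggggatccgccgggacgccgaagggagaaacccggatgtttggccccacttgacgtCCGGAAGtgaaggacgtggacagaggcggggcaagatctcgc
Nhp2: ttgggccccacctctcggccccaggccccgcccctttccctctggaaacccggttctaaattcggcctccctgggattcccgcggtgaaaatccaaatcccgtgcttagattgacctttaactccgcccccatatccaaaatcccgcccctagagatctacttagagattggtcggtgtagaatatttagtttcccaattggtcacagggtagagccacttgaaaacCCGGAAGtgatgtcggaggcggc
Nip7: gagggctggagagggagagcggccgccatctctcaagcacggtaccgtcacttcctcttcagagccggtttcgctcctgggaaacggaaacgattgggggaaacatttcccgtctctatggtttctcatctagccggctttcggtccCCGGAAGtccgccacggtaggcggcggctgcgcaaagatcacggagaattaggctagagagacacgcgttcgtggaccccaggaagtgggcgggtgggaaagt
Nop2: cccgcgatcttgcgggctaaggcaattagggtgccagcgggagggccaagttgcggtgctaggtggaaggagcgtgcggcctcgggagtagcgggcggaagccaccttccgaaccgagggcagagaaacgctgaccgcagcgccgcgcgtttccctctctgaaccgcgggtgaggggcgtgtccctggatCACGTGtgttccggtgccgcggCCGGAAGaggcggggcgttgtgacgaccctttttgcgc
The letters of a window show neither binding nor its absence, and E-boxes outside these windows were not counted.

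Of the 5 genes of RNA polymerase I transcription, Polr1c alone passed the test. Polr1c, which encodes a subunit shared by RNA polymerases I and III, had 39.9, 46.6 and 47.8 FPKM in G9gl libraries and 28.7, 33.9 and 35.3 FPKM in WT libraries. Every G9gl library lay above every WT library. Polr1c (chromosome 17, 46243920 to 46248054, mm10) rose 1.36-fold, or by 0.45 ± 0.097 on the log2 scale (SE, n = 3 per genotype, limma adjusted p 0.0095), and it was called in all 15 alternative settings. Polr1a and Polr1b, which encode the largest subunits and together form the catalytic centre, did not pass. Polr1a averaged 13.99 ± 0.323 FPKM in G9gl and 13.5 ± 0.511 FPKM in WT (SD, n = 3 each), with a limma adjusted p of 0.66. Polr1b averaged 14.8 ± 1.88 FPKM in G9gl and 13.7 ± 1.66 FPKM in WT, with a limma adjusted p of 0.53.

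A ratio within a library does not depend on how libraries are scaled. The ratio of Polr1c to Polr1a was 2.90, 3.25 and 3.46 in G9gl libraries and 2.22, 2.44 and 2.59 in WT libraries, and that of Polr1c to Polr1b was 3.15, 2.90 and 3.03 in G9gl and 2.28, 2.63 and 2.27 in WT. In neither ratio did the genotypes overlap. The pairs were chosen after their values were seen, so no test is given. Polr1d, which encodes the partner of the Polr1c protein in both polymerases, was on the wider list described below and rose as well, with 158, 162 and 156 FPKM in G9gl against 142, 134 and 135 FPKM in WT (limma adjusted p 0.016, or 0.052 to 0.069 without G9gl replicate 2, WT replicate 2 or WT replicate 3).

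Ubtf, which encodes the architectural factor that keeps ribosomal DNA open for RNA polymerase I, had lower values in G9gl libraries, at 46.6, 42.4 and 38.5 FPKM, against 48.8, 49.1 and 50.9 FPKM in WT libraries. It was the only gene of the 34 with every G9gl library below every WT library, a pattern that 20.5% of all tested genes had. Its log2 fold change, -0.22 ± 0.076 (SE), did not pass (limma adjusted p 0.062). It passed as lower after rescaling to TPM (limma adjusted p 0.0062), with library weights (limma adjusted p 0.029) and without G9gl replicate 1 (limma adjusted p 0.017). Mybbp1a, a nucleolar regulator of ribosomal RNA synthesis, averaged 80.9 ± 3.92 FPKM in G9gl and 78.8 ± 6.09 FPKM in WT (limma adjusted p 0.72). An exon of Spns2 on the opposite strand overlaps it by up to 131 bases, and Spns2 averaged 1.98 FPKM in G9gl and 11.5 FPKM in WT. The libraries keep no strand, so fragments from that overlap could be counted for either gene.

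**Figure D2:**
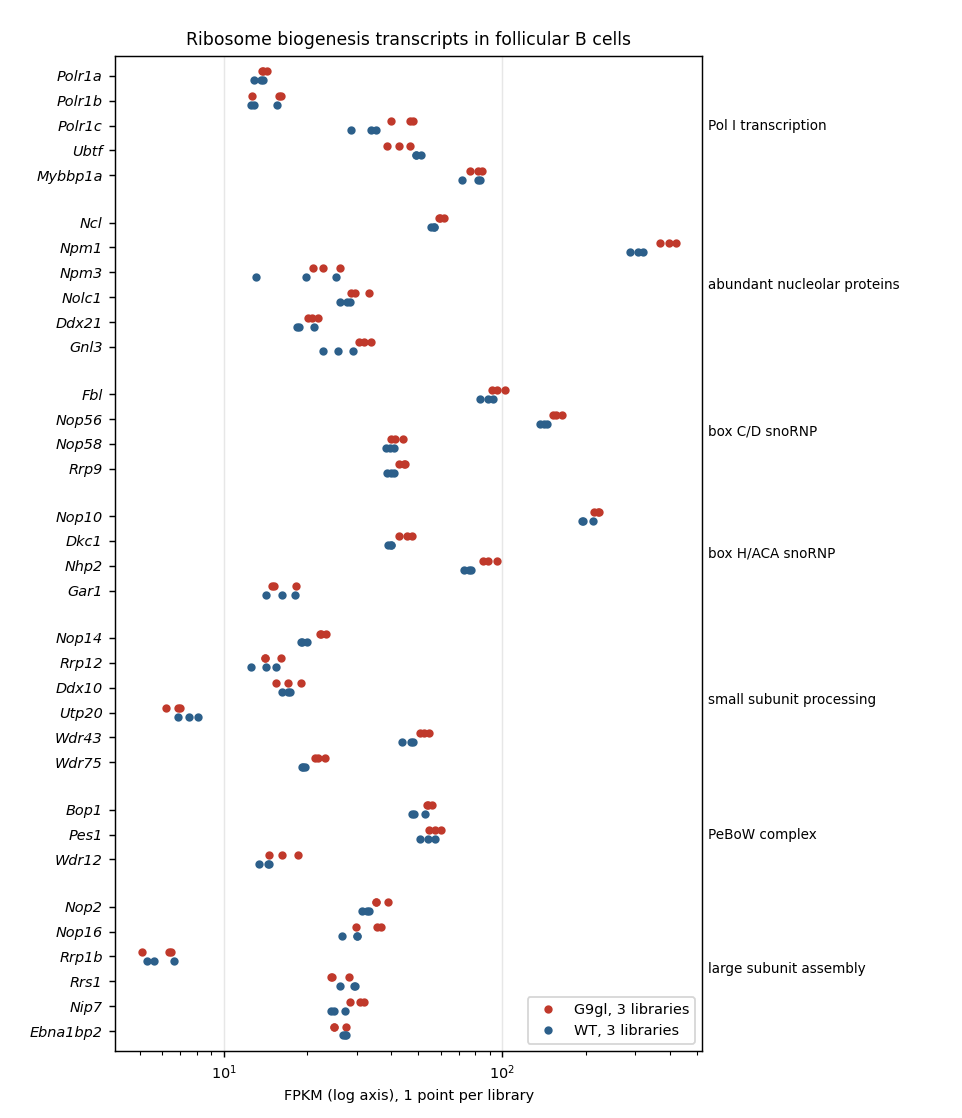
FPKM of the 34 genes in each library on a log axis, with G9gl libraries as red points above WT libraries as blue points, grouped by role. Levels run over nearly the whole axis, from Rrp1b at the low end to Npm1 at the high end, while for each gene the points of both genotypes lie close together on this axis.

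Among the abundant nucleolar proteins Npm1 had the highest level of the list. Npm1 encodes nucleophosmin, a histone chaperone that shuttles between nucleolus and cytoplasm. It had 366, 394 and 418 FPKM in G9gl libraries and 318, 286 and 305 FPKM in WT libraries. All G9gl values lay above all WT values. Npm1 (chromosome 11, 33152287 to 33163206) rose 1.29-fold, or by 0.37 ± 0.063 on the log2 scale (SE), with a limma adjusted p of 0.0028, the lowest of the 34, and it was called in all 15 alternatives. Npm1 has processed copies elsewhere in the genome, which could share fragments with it. Npm3, a chaperone gene of the same family, averaged 23.2 ± 2.64 FPKM in G9gl and 19.3 ± 6.10 FPKM in WT (limma adjusted p 0.31), and its WT libraries spread from 13.1 to 25.2 FPKM.

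Ncl encodes nucleolin, an abundant RNA-binding protein of the nucleolus. It had 59.8, 61.6 and 59.4 FPKM in G9gl libraries and 56.7, 55.5 and 57.0 FPKM in WT libraries. The genotypes did not overlap, but the difference of 0.094 ± 0.054 (log2, SE) did not pass (limma adjusted p 0.25). The ratio of Npm1 to Ncl within a library was 6.12, 6.40 and 7.04 in G9gl and 5.61, 5.16 and 5.36 in WT, again without overlap. This pair too was chosen after its values were seen, so no test is given.

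Gnl3 encodes nucleostemin, a nucleolar GTPase that is abundant in stem cells and dividing cells. It had 32.0, 33.8 and 30.6 FPKM in G9gl libraries and 22.8, 25.7 and 29.2 FPKM in WT libraries. The G9gl libraries were all above the WT libraries, by a small margin over WT replicate 3. Gnl3 (chromosome 14, 31012433 to 31019152) rose 1.24-fold (limma adjusted p 0.041), a call held in 6 of 15 alternatives. Of the fits without a single library, only that without WT replicate 3 kept it, and in the other 5 the limma adjusted p was 0.061 to 0.13. Its exons overlap those of Pbrm1 on the opposite strand by up to 15 bases. Nolc1, a snoRNP chaperone gene, averaged 30.6 ± 2.43 FPKM in G9gl and 27.4 ± 1.13 FPKM in WT (limma adjusted p 0.19), and the RNA helicase gene Ddx21 averaged 20.9 ± 0.923 FPKM in G9gl and 19.4 ± 1.44 FPKM in WT (limma adjusted p 0.38).

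Box C/D snoRNPs carry the methyltransferase fibrillarin, encoded by Fbl, on a scaffold of the proteins of Nop56 and Nop58. Of the 4 genes of this group, 0 passed the test at the adjusted threshold, with log2 fold changes from 0.071 to 0.16, and Nop56 and Rrp9 had unadjusted limma p of 0.013 and 0.047. Nop56 had 152, 164 and 156 FPKM in G9gl libraries and 136, 141 and 144 FPKM in WT libraries. The groups did not overlap, and the limma adjusted p was 0.054, or 0.044 without G9gl replicate 1. Nop58 averaged 41.7 ± 2.10 FPKM in G9gl and 39.6 ± 1.33 FPKM in WT, Fbl 96.6 ± 5.39 FPKM in G9gl and 88.0 ± 4.90 FPKM in WT. Rrp9, whose protein belongs to the C/D particle of early precursor cleavage, averaged 43.8 ± 1.13 FPKM in G9gl and 39.8 ± 1.02 FPKM in WT. The ratio of Nop56 to Fbl overlapped between genotypes, at 1.59, 1.60 and 1.70 in G9gl libraries and 1.64, 1.60 and 1.55 in WT libraries.

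Box H/ACA snoRNPs turn uridines of ribosomal RNA into pseudouridines, and the same 4 proteins sit on telomerase RNA. Nhp2, which encodes an RNA-binding core protein, had 85.2, 95.7 and 89.1 FPKM in G9gl libraries and 76.9, 73.04 and 75.6 FPKM in WT libraries. All G9gl libraries were higher than all WT libraries. Nhp2 (chromosome 11, 51619735 to 51623714) rose 1.19-fold, or by 0.26 ± 0.061 on the log2 scale (SE, limma adjusted p 0.015). The call was lost without G9gl replicate 2 or WT replicate 2 (limma adjusted p up to 0.066 over the left-out libraries), after rescaling to TPM (limma adjusted p 0.15) and with a trend on GC content and length removed (limma adjusted p 0.11). The exons of Rmnd5b on the opposite strand overlap it by up to 44 bases.

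Dkc1, which encodes dyskerin, the pseudouridine synthase of the particle, had 45.6, 47.6 and 42.7 FPKM in G9gl libraries and 39.97, 38.9 and 39.7 FPKM in WT libraries. The genotypes did not overlap, and the limma adjusted p was 0.059. The ratio of Nhp2 to Dkc1 within a library overlapped between genotypes, at 1.87, 2.01 and 2.09 in G9gl and 1.92, 1.88 and 1.90 in WT. Nop10, the smallest core protein, averaged 218 ± 5.14 FPKM in G9gl and 199 ± 9.88 FPKM in WT (limma adjusted p 0.11). Gar1, the outer protein that binds dyskerin, averaged 16.1 ± 1.82 FPKM in G9gl and 16.2 ± 1.92 FPKM in WT (limma adjusted p 0.98). In FPKM, which are per length, transcript levels of these core genes ran in the order Nop10, Nhp2, Dkc1 and Gar1 in all 6 libraries, with 11.6 to 14.8 times as much Nop10 as Gar1.

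Small subunit processing factors work on the precursor before it is split between the subunits. Nop14, a component of the early small subunit particle, had 22.2, 22.3 and 23.3 FPKM in G9gl libraries and 18.98, 19.2 and 19.9 FPKM in WT libraries. The libraries of each genotype lay close together and apart from the other genotype. Nop14 (chromosome 5, 34638536 to 34660148) rose 1.16-fold with a limma adjusted p of 0.049, and without any 1 of the 6 libraries the call was lost (limma adjusted p 0.069 to 0.14). An exon of Gm15522 on the opposite strand overlaps it by up to 123 bases. Wdr43 and Wdr75, subunits of the complex that binds the precursor first, did not pass. Wdr43 had 52.2, 50.8 and 54.4 FPKM in G9gl and 47.9, 47.2 and 43.7 FPKM in WT (limma adjusted p 0.070), and Wdr75 21.8, 21.3 and 23.1 FPKM in G9gl and 19.1, 19.6 and 19.3 FPKM in WT (limma adjusted p 0.091). Neither gene's genotypes overlapped. Rrp12, Ddx10 and Utp20 had limma adjusted p from 0.35 to 0.89, with Rrp12 at 14.7 ± 1.13 FPKM in G9gl and 14.03 ± 1.42 FPKM in WT, Ddx10 at 17.2 ± 1.80 FPKM in G9gl and 16.8 ± 0.624 FPKM in WT, and Utp20 at 6.70 ± 0.418 FPKM in G9gl and 7.48 ± 0.614 FPKM in WT.

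Large subunit genes included the PeBoW complex, named after the proteins of Pes1, Bop1 and Wdr12, which is needed to mature the large subunit RNAs. Of its 3 genes 0 passed at the adjusted threshold, and Bop1 had an unadjusted limma p of 0.047. Bop1 averaged 54.6 ± 1.28 FPKM in G9gl and 49.4 ± 2.85 FPKM in WT, Pes1 57.3 ± 2.98 FPKM in G9gl and 54.0 ± 3.41 FPKM in WT. Wdr12 averaged 16.4 ± 2.03 FPKM in G9gl and 14.1 ± 0.608 FPKM in WT. Per length, Wdr12 lay below both other genes in all 6 libraries.

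Nip7, a gene of a factor that binds the large subunit precursor, had 28.5, 30.8 and 31.9 FPKM in G9gl libraries and 24.4, 24.9 and 27.3 FPKM in WT libraries. No G9gl library overlapped a WT library. Nip7 (chromosome 8, 107056877 to 107060931) rose 1.18-fold with a limma adjusted p of 0.044, a call held in 7 of 15 alternatives. Leaving out G9gl replicate 2, G9gl replicate 3, WT replicate 1 or WT replicate 2 ended it (limma adjusted p 0.12 to 0.14). Ebna1bp2 and Rrs1, whose proteins act at early large subunit steps, had lower means in G9gl. Ebna1bp2 had 24.98, 27.4 and 24.99 FPKM in G9gl and 27.4, 26.9 and 27.6 FPKM in WT (limma adjusted p 0.44), and Rrs1 had 24.2, 28.1 and 24.6 FPKM in G9gl and 29.7, 26.1 and 29.3 FPKM in WT (limma adjusted p 0.26). Both overlapped between genotypes. The ratio of Nip7 to Ebna1bp2 within a library was 1.14, 1.12 and 1.28 in G9gl and 0.890, 0.927 and 0.991 in WT, without overlap. That pair sets a called gene beside one with a lower mean in G9gl and was chosen after its values were seen, so no test is given. Nop2 and Nop16, a methyltransferase gene and an assembly factor gene, averaged 36.4 ± 2.06 and 34.0 ± 3.70 FPKM in G9gl against 32.4 ± 0.940 and 28.9 ± 2.05 FPKM in WT, both with limma adjusted p of 0.11, and Nop16 passed without G9gl replicate 3 (limma adjusted p 0.037). Rrp1b had the lowest level of the list, with 5.98 ± 0.760 FPKM in G9gl and 5.88 ± 0.698 FPKM in WT.

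**Figure D3:**
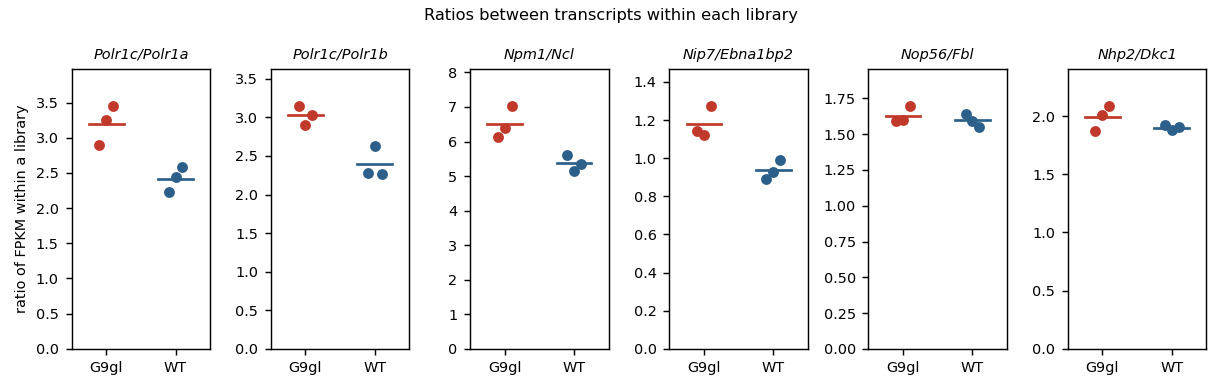
Ratios between FPKM of gene pairs within each library, with G9gl libraries in red left of WT libraries in blue and a line at the mean of each genotype. The ratios of Polr1c to Polr1a and to Polr1b, of Npm1 to Ncl and of Nip7 to Ebna1bp2 do not overlap between genotypes, while Nop56 to Fbl and Nhp2 to Dkc1 do. Pairs were chosen after their values were seen, so no test is given.

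The libraries of a genotype did not share 1 order over the list. G9gl replicate 2 was the highest G9gl library for 17 of the 34 genes, replicate 3 for 9 and replicate 1 for 8. Over all tested genes G9gl replicate 2 was highest for 29.8% and replicate 1 for 37.3%. WT replicate 1 was the lowest WT library for 19 of the 34 genes, against 37.0% of all tested genes. Without G9gl replicate 2, and likewise without WT replicate 2, Nhp2, Nip7, Gnl3 and Nop14 no longer passed, and Npm1 and Polr1c did.

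**Figure D4:**
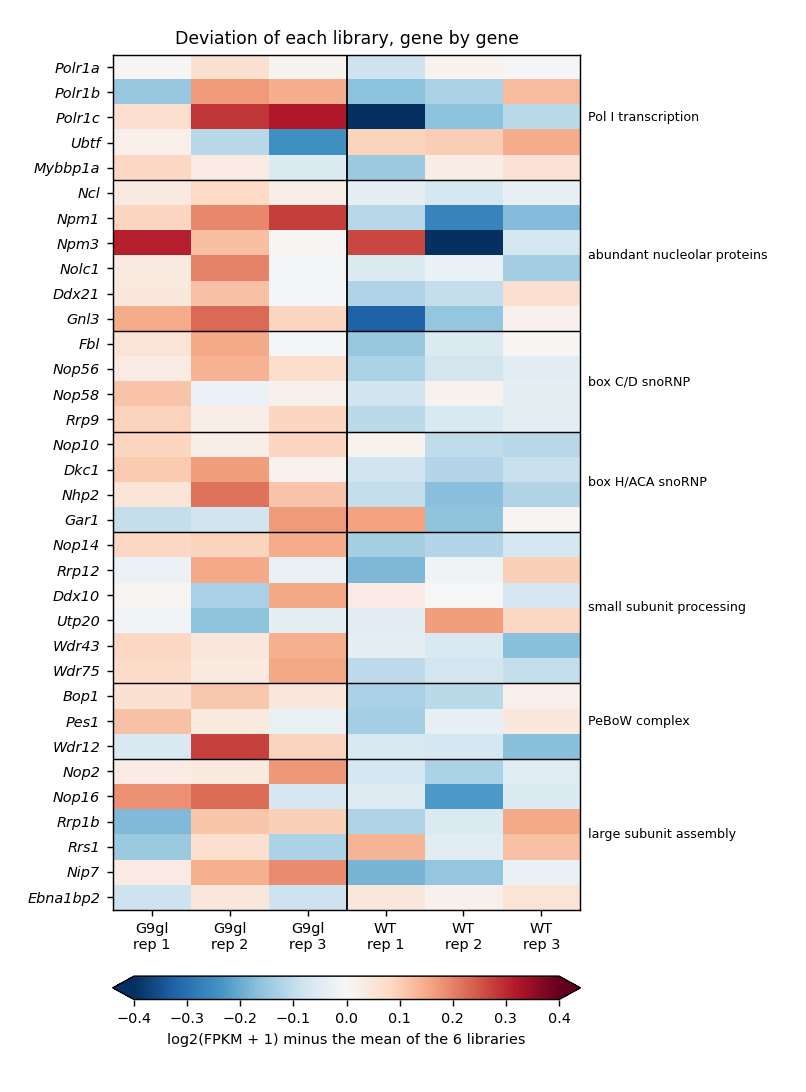
Deviation of each library from the 6-library mean of each gene in log2(FPKM + 1), with G9gl libraries left of WT libraries, genes grouped by role, and colours that saturate at 0.4 in either direction. Most genes are red at left and blue at right, Ubtf is the reverse, and Npm3 differs more within WT than between genotypes.

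Myc, known to drive many genes of ribosome assembly, and its partners were set beside the list. Myc had 98.4, 61.5 and 58.2 FPKM in G9gl libraries and 46.1, 52.6 and 47.1 FPKM in WT libraries. All G9gl libraries were above all WT libraries, and replicate 1 stood well above the other G9gl libraries. Whether Myc levels go with those of the 34 genes was not tested. Myc rose 1.45-fold with a limma adjusted p of 0.047, a call held in 7 of 15 alternatives and lost without WT replicate 1, 2 or 3 (limma adjusted p 0.13, 0.082 and 0.12). Among other settings, rescaling to TPM (limma adjusted p 0.087) and removing the trend on GC content and length (limma adjusted p 0.073) also ended the call. Without G9gl replicate 1 the log2 fold change of Myc was 0.30, against 0.53 with all libraries, and the call was kept (limma adjusted p 0.022). Max, which encodes the obligate partner of Myc, had 39.7, 46.1 and 47.9 FPKM in G9gl libraries and 32.5, 23.9 and 36.7 FPKM in WT libraries and rose 1.44-fold (limma adjusted p 0.024), held in 10 of 15 and lost without G9gl replicate 2 or 3 (limma adjusted p 0.065 and 0.075). The call of Max was also lost after rescaling to TPM, with that trend removed and with no filter (limma adjusted p 0.054, 0.051 and 0.092). The genes of proteins that compete with Myc for Max, Mxd1, Mxd4, Mxi1, Mnt and Mga, did not pass, nor did Mlx and Mlxip of the parallel network (limma adjusted p from 0.37 to 0.73). Mycn, Mycl and Mxd3 were below the filter.

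A wider list of 103 other ribosome biogenesis genes, from RNA polymerase I cofactors to export factors, was tested in the same fit. Of these, 10 were higher in G9gl and 0 lower, 9.71% against 11.8% of all tested genes, and 81 had a log2 fold change above 0, or 78.6% against 49.7%. In 25 every G9gl library lay above every WT library, or 24.3% against 20.3% of all tested genes, and in 4 every one lay below, against 20.5%. The median log2 fold change was 0.060. After rescaling to TPM 34 of the 103 had a log2 fold change above 0, and the median of the 103 was -0.0635, against -0.127 over all tested genes. On FPKM, 0 of the 103 were lower at an unadjusted limma p under 0.05. Those that rose were Polr1d among polymerase genes, Rcl1 and Nat10 in the small subunit pathway, and Gltscr2, Mrto4, Ddx24, Rpf2, Gnl2, Mak16 and Nifk in the large subunit pathway.

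Rcl1, a gene of early precursor cleavage, had 33.5, 35.0 and 37.1 FPKM in G9gl and 29.2, 28.5 and 27.7 FPKM in WT, and Nat10, an RNA acetyltransferase gene, 22.9, 22.4 and 20.3 FPKM in G9gl and 18.3, 18.4 and 16.2 FPKM in WT. Gltscr2, an older symbol of Nop53, had 242, 265 and 250 FPKM in G9gl and 200.1, 211 and 215 FPKM in WT. Mrto4 had 33.6, 32.5 and 30.8 FPKM in G9gl and 24.0, 25.8 and 27.8 FPKM in WT, and rose 1.24-fold. The helicase gene Ddx24 rose 1.17-fold. All of these had every G9gl library above every WT library. Rcl1 and Gltscr2 passed without any 1 of the libraries, whereas Nat10, Mrto4 and Ddx24 each lost the call without some of them, among these G9gl replicate 2 for all 3 (limma adjusted p up to 0.097, 0.053 and 0.064). The number higher among the 103 was 3 without G9gl replicate 2 or WT replicate 1, 4 without WT replicate 2 and 5 without G9gl replicate 3 or WT replicate 3. After rescaling to TPM it was 0 in limma, with 3 higher at an unadjusted p under 0.05, and 4 were lower. In that setting 7.21% of all tested genes were called higher and 24.6% lower.

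The genes of the cytosolic ribosomal proteins, whose products these factors assemble, were nearly all higher. Of 79 tested, 74 were higher, or 93.7% against 11.8% of all tested genes, and 0 were lower against 11.6%. Their median log2 fold change was 0.33. At an unadjusted limma p under 0.05 the number lower was 0. These genes have many processed copies in the genome, which could share fragments with them. Per library, the summed FPKM of the ribosomal protein genes was 62.0, 64.1 and 60.9 times that of the 34 genes in G9gl and 59.0, 55.2 and 54.9 times in WT. That ratio was higher in every G9gl library than in any WT library. G9gl replicate 2 was the highest G9gl library for 72 of the 79 genes. After rescaling to TPM 55 of the 79 were called higher, against 7.21% of all tested genes. After quantile normalization 27 were higher and 1 lower, against 1028 higher and 1144 lower of all 10122 tested genes.

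**Figure D5:**
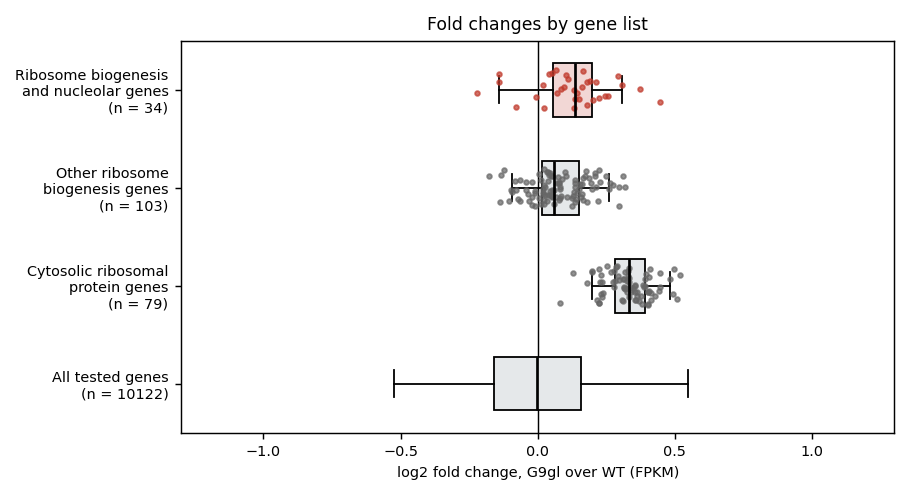
Log2 fold changes, G9gl over WT, of the 34 genes, of 103 other ribosome biogenesis genes, of 79 cytosolic ribosomal protein genes and of all 10122 tested genes. Boxes span the quartiles with a line at the median and whiskers from the 5th to the 95th percentile, and in the first 3 rows each point is 1 gene. The medians are 0.13, 0.060, 0.33 and -0.0022.

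The marker lists set beside these genes were tested in the same fit, in which 11.8% of all tested genes were called higher and 11.6% lower. Of the 12 macrophage markers 9 passed the filter and 7 were higher in G9gl. Of the 12 proliferation markers 9 passed the filter and 7 were higher, and Mki67, which did not pass the filter, had 0.939 to 1.71 FPKM in G9gl and 0.279 to 0.389 FPKM in WT. Of 8 plasma cell markers 6 were tested, 3 were higher and 1 lower, with sums of 345 to 369 FPKM in G9gl and 321 to 346 FPKM in WT. Of 6 germinal centre markers 3 were tested, 2 higher and 1 lower, with sums of 68.3 to 68.9 FPKM in G9gl and 68.7 to 72.5 FPKM in WT, and of 8 T cell markers 3 were tested and 0 passed in limma, none of them at an unadjusted p under 0.05, with sums of 7.15 to 8.09 FPKM in G9gl and 4.24 to 7.17 FPKM in WT. Of 17 genes of dissociation stress 13 were tested, 5 higher and 2 lower, with sums of 3843 to 4562 FPKM in G9gl and 3182 to 3528 FPKM in WT. No marker on these lists was at 0 in all 6 libraries. The 9 B cell markers were all tested and summed to 7618 to 8021 FPKM in G9gl and 8380 to 8684 FPKM in WT, with 5 lower and 1 higher.

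An estimated 9270000 to 10800000 fragments stood behind each library, so that 1 FPKM in a transcript of 2 kb rested on about 18.5 to 21.6 fragments. The gene with the fewest fragments of the 34, Npm3 or Gar1, had about 110 to 230 in a library. These numbers rest on a window set in advance, described below, which bounds them, so they are not a measured depth.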

How the data were processed

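The authors deposited 1 FPKM value per gene symbol and library, a unit read from the tools named and from the values. Per the labels' protocols, libraries were prepared with Nextera from SMART-Seq HT cDNA of Trizol-extracted RNA, chemistry that keeps no strand. Per the submitters' processing notes, the build was mm10 and the tools were Cufflinks 2.2.1, TopHat2 2.0.13, SAMtools 0.1.19 and Bowtie2 2.2.3. The sources used here do not give the annotation or how libraries were scaled. Immunoglobulin genes were not analysed here, so totals and TPM cover the other genes.

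From these values, log2(FPKM + 1) was tested with limma 3.58.1 in R 4.3.3 (lmFit, eBayes with a trend, genotype as the only term), after a filter of at least 1 FPKM in at least 3 libraries, with Benjamini-Hochberg adjustment over all 10122 genes left. No pair of libraries shared more than 2 identical values above 0. The fit was tested on simulated data. The alternatives were a pseudocount of 0.1, no filter, a filter of 5 FPKM, TPM, median-ratio scaling, quantile normalization, library weights, a replicate block, removal of the trend of fold change with GC content and length (95.97% of tested genes had both), and leaving out each library.

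The 34 genes and all other lists were chosen with earlier results of these data known, although no measured value is part of the rule. All 34 are described. Of the wider list, up to 3 called genes per role with the smallest p are given with values, and the Myc network in full; the remaining called genes of that list were named after their values were seen. Depth is unknown from the files and was estimated from the FPKM that 1 fragment gives in single-transcript genes of at least 1500 bases, which covers counting error only. Genes were used only where FPKM times length in kb lay between 0.06 and 0.14, and their median was taken as 1 fragment. That window confines the estimate to a fixed range whatever the true depth, so it cannot tell the true depth of a library. Positions come from GENCODE vM21 (GRCm38, which mm10 denotes), are 1-based and were matched by symbol.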

Additional observations from a re-analysis of the deposited data

How the results depend on the processing

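No alternative turned the direction of any of the 6 called genes, and Npm1 and Polr1c were called in all 15. After rescaling to TPM the number called was 2 higher and 3 lower among the 34 genes, 0 higher and 4 lower among the 103 other ribosome biogenesis genes and 730 higher and 2493 lower among all genes, and the median of the 34 genes was 0.0039, since that scaling divides by totals that were higher in G9gl. The number called higher among the 34 was 3 when no filter was set, against 968 of 19079 tested genes. With the replicate block it was 3, against 1044 of 10122 tested genes. With the trend on GC content and length removed it was 4, against 1108 of 9714 tested genes. Of these 4, Bop1 and Ncl were not among the 6. With library weights 1 of the 34 was lower, and 8 were higher, within 1.5 times the 6 reported. Of all 10122 tested genes, 1333 were then higher and 1340 lower. For these last changes the cause was not tested. Leaving out each library gave 2 to 5 of the 34 higher and 0 to 1 lower, a median of 0.11 to 0.16, 3 to 8 of the 103 higher, and 827 to 1136 genes higher and 718 to 1172 lower of all tested. Set against all tested genes, the median of the 34 stood 0.11 to 0.16 higher in the 15 alternatives.

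Genes whose estimate changed sign after rescaling to TPM were Ddx10 (-0.11), Ddx21 (-0.023), Mybbp1a (-0.092), Ncl (-0.037), Nop10 (-0.0001), Nop58 (-0.059), Pes1 (-0.047), Polr1a (-0.074), Polr1b (-0.015), Rrp12 (-0.059), Rrp1b (-0.099), Mga (-0.040), Mlx (-0.048), Mxd1 (-0.058) and Mxd4 (-0.035), none of which passed in either setting. After the trend with GC content and length was removed, the signs of Ddx10 (-0.020), Nop10 (-0.025), Mlx (-0.0057) and Mlxip (0.060) changed, with library weights that of Gar1 (0.030), and after quantile normalization that of Gar1 (0.028). Without a single library the log2 fold change ran from -0.051 to 0.092 for Ddx10, -0.091 to 0.074 for Gar1, -0.025 to 0.079 for Mybbp1a, -0.0066 to 0.13 for Rrp12 and -0.036 to 0.11 for Rrp1b.

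Deviations of same-numbered libraries correlated at 0.099, -0.069 and 0.021 across genes. These values show no clear pairing by replicate number. They cannot exclude one, since the deviations of the 3 libraries of a genotype sum to 0. The count under the block is therefore given without a reading. Not every library correlated best with its own number. Npm3 and Gar1, whose longest transcripts have 888 and 1271 bases, rest on the fewest fragments of the 34 genes, which limits what this depth can show for them.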
